A study of Drosophila melanogaster with 60 samples.

Results

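Male and female Drosophila melanogaster pupae without a germline were compared shortly before the end of metamorphosis, at 96 h after puparium formation (APF). The comparison rests on 6 arrays of 60 in the series, 3 of tud progeny males and 3 of tud progeny females, and its members are all probes with at least 2 values in each sex, 4380 of 15744 once control elements were left out. Of these, 2726 had a value on all 6 arrays. Every array compared RNA of a pool of whole pupae with a common reference of Canton S males and females of all pupal stages, so a value is a log2 ratio of sample to reference, and a sex difference is the male mean minus the female mean. Both sexes were the offspring of mothers homozygous for tud1, bw1 and sp1 and of fathers with a y, w X chromosome bearing P[w+cM UBI-GFP] and an FRT insertion. The daughters, but not the sons, inherit the X chromosome that carries the GFP marker and its white transgene, and they were told apart by fluorescence. The other groups used for comparison were tud progeny of both sexes at 0, 24, 48 and 72 h APF and Canton S wild type of both sexes at 96 h APF, with 3 arrays each. The labels do not say whether replicates came from separate cultures, so p-values measure the spread between these arrays, which may be technical.

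The mothers' tudor mutation stops the formation of the germ cells of their offspring, so sex differences of the progeny arise in the soma. In flies the number of X chromosomes sets Sex lethal, which acts through transformer on doublesex and fruitless, and separately keeps the dosage compensation complex out of females. In males that complex, with the non-coding RNAs roX1 and roX2, raises transcription of the single X chromosome. At 96 h APF the adult cuticle, muscles, eyes and genital organs are nearly complete. Whole pupae were used, and fewer cells of a type and less RNA per cell cannot be told apart.

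Male replicate 3 stood apart from the other 5 arrays. Across probes its correlation was 0.754 with male replicate 1 and 0.784 with male replicate 2. With female replicates 1, 2 and 3 it was 0.674, 0.740 and 0.810. The 3 female arrays correlated at 0.856 to 0.901 with each other, and male replicates 1 and 2 at 0.829. Male replicates 1 and 2 were closer to the females (0.841 to 0.881) than to male replicate 3. Male replicate 3 was the array most like the wild type males of 96 h among the males (r = 0.720, against 0.512 and 0.614) and the least like the tud males of 72 h (0.399, against 0.579 and 0.598). Among the females, replicate 3 was likewise the most like wild type of 96 h (0.791, against 0.659 and 0.737). It was also the least like tud progeny of 72 h (0.571, against 0.646 and 0.601). The limma array quality weight of male replicate 3, 0.14, was the lowest of the 60 arrays. Male replicate 2 had fewer very low ratios than its partners, with 27 values below -5 against 87 and 58. The arrays held 4227 to 6277 values, with medians between -0.011 and 0.081, and the median standard deviation over 3 values was 0.40 in males and 0.20 in females. Between male replicates 1 and 2 alone it was 0.23.

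At 96 h the sexes differed at 202 probes, 163 higher in males and 39 higher in females, which is 4.61% of the probes tested (3.72% and 0.89%, limma, Benjamini-Hochberg adjusted p under 0.15). The study also took 0.15, but for q values, and tested single time points only among genes that had passed F-tests. The calls were small in size. The median difference was 0.89 on the log2 scale among those higher in males and -1.10 among those higher in females, and 87 of them reached 2-fold. All values of males lay above all values of females for 117 of the 163, against 12.9% of all probes tested, and below them for 22 of the 39, against 3.47%. An exact permutation test of 3 arrays against 3 cannot go below p = 0.10, so no single probe can be called that way.

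Few of these calls held without male replicate 3. Without it 140 of the 202 could still be tested, and 8 probes were called of 3706 tested (0.216%), 6 higher in males and 2 higher in females, all of them among the 202. It held the highest male value for 125 of the 152 male-higher calls in which it had a value, and the lowest for 29 of the 39 female-higher calls, but it was also the highest or lowest male at 78.6% of all tested probes with 3 male values. At an unadjusted p under 0.05 there were 270, against 678 with all arrays. The median of the male-higher calls that were still tested moved from 0.84 to 0.62, and that of the female-higher calls from -1.02 to -0.60. Other arrays moved the count as well. It was 618 without male replicate 1, 470 without male replicate 2, 120 without female replicate 1 and 60 without female replicate 2, and 208 without female replicate 3.

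**Figure D1:**
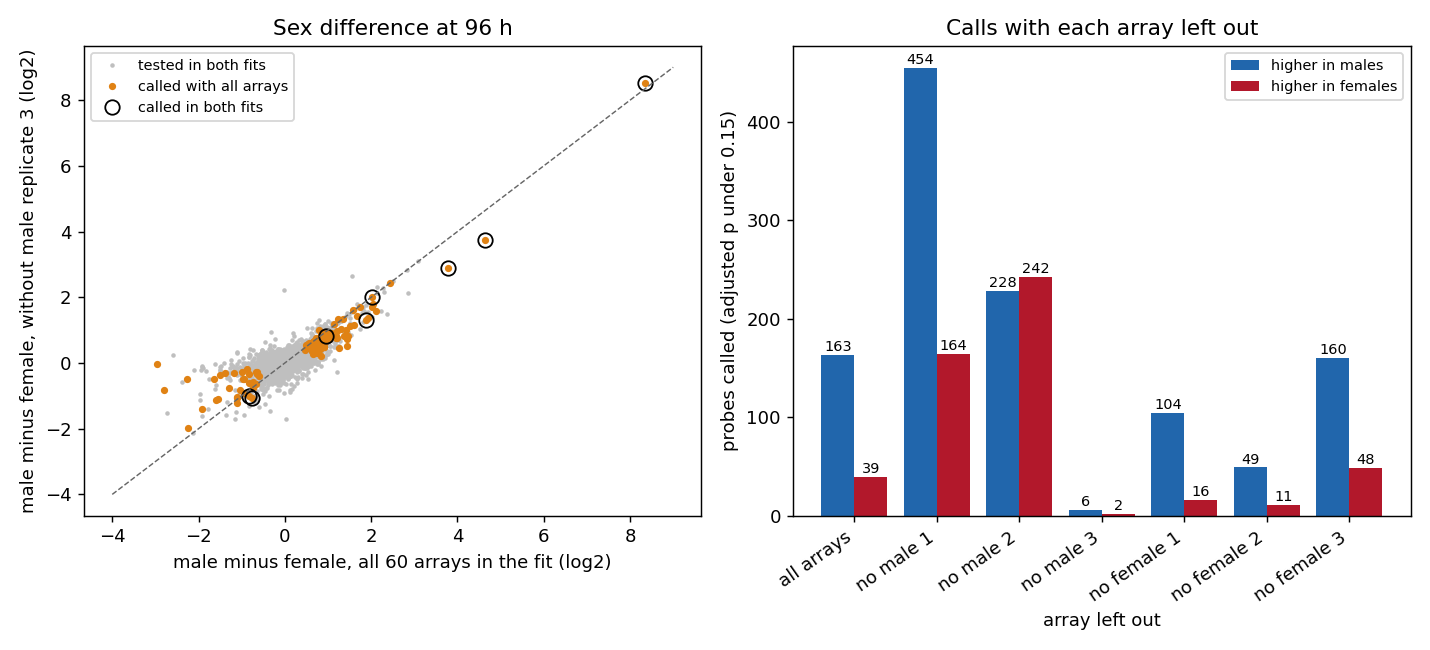
Left, the log2 sex difference of each tested probe with all arrays (horizontal) and without male replicate 3 (vertical), with the calls in orange, calls of both fits ringed and equality dashed. Right, the number of probes called higher in males (blue) and in females (red) with all arrays and with each array left out, from 163 and 39 down to 6 and 2 without male replicate 3.

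RNA on the X 1 (roX1, probe DAC007K18), an RNA of the dosage compensation complex, had by far the most certain difference. Its log2 ratios were 0.75, 0.60 and 0.20 in males, and -7.11 and -8.55 in females, with no value on female replicate 2. The sexes were thus separated by more than 7 log2 units on every array measured. The difference was 8.35 ± 0.39 (SE; adjusted p = 2.32e-20), and without male replicate 3 it was 8.51. The call held under every one of the 15 alternatives in which the probe could be tested, with adjusted p from 5.57e-22 to 0.0429. Where RNA of the sample was too weak to see, a ratio still stands and is very low, so how far the females lay below the males is uncertain. RNA on the X 2 (roX2, DAC029L10), the other RNA of that complex, had 0.48, 0.41 and 0.73 in males and -0.39 and -2.26 in females. The groups did not overlap, but the difference of 1.87 ± 0.84 did not pass the test (adjusted p = 0.278).

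The genes of the sex determination pathway itself gave no call with all arrays. Sex lethal, the female switch gene, had -0.57, 0.93 and -1.13 in males and 0.49, 0.57 and 0.31 in females at probe DAC006G03, a difference of -0.71 ± 0.30 (adjusted p = 0.225) with overlapping groups. The call turned on male replicate 2, without which the difference was -1.31 and called (adjusted p = 0.0021, within a range of 0.0021 to 1 over 17 alternatives), while it was -0.28 without male replicate 3. Its other probe, DAC006G05, had 1 male value and was not tested, and the transformer probe had no value on any of the 6 arrays. CG3056 (sister of Sex lethal, ssx), which encodes a related RNA-binding protein, differed by 0.21 ± 0.27 (adjusted p = 0.757). The homeotic gene abdominal A, which patterns the abdomen, had -1.24 and 1.02 in males and -1.0, -0.81 and -0.72 in females, so its only high value was that of male replicate 3 (difference 0.73 ± 0.34, adjusted p = 0.285).

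Among transcripts higher in females, Larval serum protein 1 alpha (Lsp1alpha, DAC021A11), an X-linked gene for a storage protein of the larval fat body, had -2.45, -2.13 and -3.69 in males and -1.16, -0.96 and -1.35 in females. Every male array was below every female array. Females were 3.03-fold higher (-1.60 ± 0.33, adjusted p = 0.00683), and the difference without male replicate 3 was -1.13 and not called. The other 5 storage and fat body proteins measured differed by -0.72 to -0.45 without a call, so that 1 of 6 was called. The summed picture of this list moved with male replicate 3, where its median was -3.59, against -2.46 and -2.18 in the other males and -1.94 to -1.56 in females.

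The white gene, which encodes a transporter of eye pigment precursors and is also the marker of the transgene on the daughters' X chromosome, had 2 probes that behaved differently. DAC030L11 had -0.23, 0.55 and 0.05 in males and 1.36 and 1.13 in females, without overlap. It was 2.17-fold higher in females (-1.12 ± 0.29, adjusted p = 0.0427), and without male replicate 3 its difference was -1.08 and not called. DAC005J02 had -1.27, -0.18 and 0.13 in males and -0.77, 0.10 and 0.33 in females, which overlap (-0.33 ± 0.28, adjusted p = 0.618). Another gene of eye colour went the other way. Carmine (DAC028D08), a subunit of the adaptor complex that builds pigment granules, had 1.49 and 1.58 in males and -0.07 and -0.13 in females, 3.10-fold higher in males (1.63 ± 0.27, adjusted p = 0.00144) with no value on replicate 2 of either sex.

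Immune genes were called in opposite directions. The antifungal peptide gene Drosomycin (DAC023G10) had -1.64, -1.29 and -1.06 in males and -0.34, -0.15 and -0.22 in females, and its relative drosomycin-4 (DAC039E11) had -2.90, -2.65 and -2.92 against -1.71, -1.82 and -2.08. In both genes the sexes were separate on all 6 arrays and male replicate 3 was close to its partners. Drosomycin was 2.14-fold higher in females (-1.10 ± 0.35, adjusted p = 0.112) and drosomycin-4 was 1.94-fold higher (-0.95 ± 0.21, adjusted p = 0.0117). Without male replicate 3 the differences were -1.23 and -0.91, and neither was called. Lysozyme B (DAC035F07), one of the lysozymes of the fly gut, was on the other side, with 0.21, -0.47 and 0.02 in males and -1.29, -2.96 and -1.22 in females (1.74 ± 0.46, adjusted p = 0.0492). Without male replicate 3 its difference was 1.69 and not called. Melanization Protease 1, a serine protease of the melanization cascade, was called higher in males (1.24 ± 0.34, adjusted p = 0.0627), but its groups overlapped and the lowest value was -3.38 on female replicate 2, against -0.47 and -0.96 on the other female arrays. Without female replicate 2 the difference was 0.35 and not called. Of the 13 immune genes tested 2 were called in each direction, 30.8% of a short list, beside 4.61% of all probes and 7.65% of those with a paired name. Their median difference was 0.11, near the 0.10 of all probes. The drosomycins and the lysozymes are families of similar genes, and whether a probe also bound a relative was not tested.

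**Figure D2:**
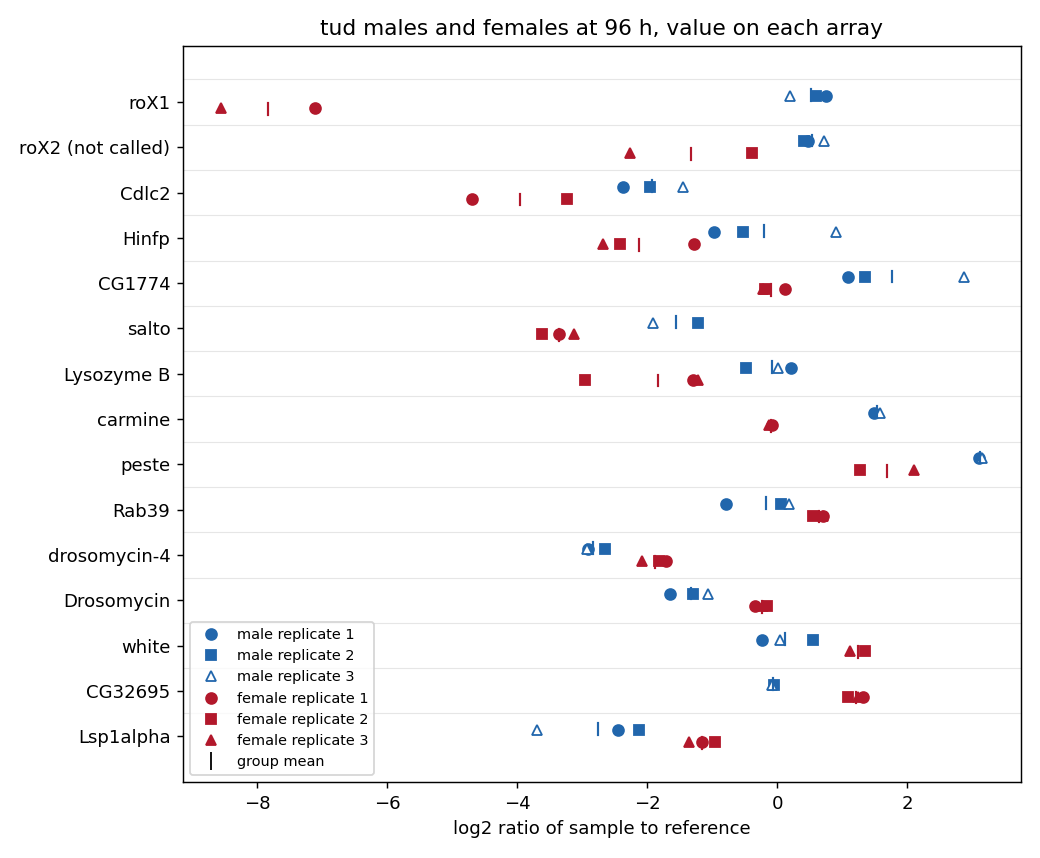
The log2 ratio of sample to reference on each 96 h array of tud progeny for 15 named probes, males in blue (replicate 3 open) and females in red, with a bar at each group mean; a missing symbol is a missing value. The male values of roX1 lie between 0.20 and 0.75 and the female values below -7, whereas Lsp1alpha, white and the drosomycins are shifted the other way by 0.95 to 1.60.

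Other transcripts were higher in females. Arginine kinase, which buffers ATP in muscle, had -1.99, 0.38 and -2.18 in males and 0.82, -0.06 and 0.14 in females, a called difference of -1.56 ± 0.40 (adjusted p = 0.0405) in overlapping groups. It was -2.38 without male replicate 2 and -1.10, not called, without male replicate 3, and it was the 1 gene called of 18 muscle genes tested. Rab39 (DAC028L23), a small GTPase of vesicle traffic, had -0.78, 0.06 and 0.19 in males and 0.70, 0.55 and 0.71 in females (-0.83 ± 0.23, adjusted p = 0.0555). It belonged to the 8 probes that were also called without male replicate 3 (-1.01). So did CG15347, named for that reason after its values were seen, with -0.41, 0.41 and 0.94 in males and 0.87, 1.52 and 0.85 in females (-0.76 ± 0.25, adjusted p = 0.116), where male replicate 3 made the groups overlap. CG32695 had -0.05 and -0.08 in males and 1.33, 1.09 and 1.24 in females (-1.28 ± 0.27, adjusted p = 0.00968), and CG14717 had 0.14, 0.24 and -0.42 against 1.24, 1.03 and 0.79 (-1.03 ± 0.21, adjusted p = 0.00698). These pairs of groups did not overlap. Without male replicate 3 CG14717 was at -0.83 and not called, and CG32695 could not be tested. The other named probes with separate groups were CG6138 (-1.46), CG7816 (Zip99C, -1.17), CG32850 (Rnf11, -1.10), CG13211 (-0.84) and Tetraspanin 42Ep (-0.74), with adjusted p from 0.00968 to 0.129. None of them was called without male replicate 3, where CG6138 and CG7816 could not be tested. CG15369 was called with groups that met at the edge, with -0.13, -0.68 and -1.99 in males and 0.86 and -0.15 in females (-1.29 ± 0.32, adjusted p = 0.033; -0.76 without male replicate 3, not called). CG14629, with -0.75, -1.12 and -2.09 in males and -0.40, -0.47 and -1.06 in females, was also called in overlapping groups (-0.67 ± 0.22, adjusted p = 0.112). Without male replicate 3 its difference was -0.29 and not called.

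The named transcripts higher in males with separate groups were led, after roX1, by genes with low ratios in both sexes. CG31988 had -2.97 and -4.53 in males and -7.13, -6.94 and -6.07 in females (2.96 ± 0.83, adjusted p = 0.0662). CG17376 had -6.56 and -2.76 in males and -7.64, -6.96 and -6.69 in females (2.44 ± 0.82, adjusted p = 0.129). In both the higher male value was that of male replicate 2, the array with few very low ratios. Cytoplasmic dynein light chain 2 (Cdlc2), a subunit of the dynein motor, had -2.37, -1.96 and -1.44 in males and -4.69 and -3.23 in females (2.04 ± 0.53, adjusted p = 0.0505). CG8420 (2.03 ± 0.60, adjusted p = 0.0759), CG31029 (1.85 ± 0.43, adjusted p = 0.0169) and Syntaxin Interacting Protein 2 (salto, 1.80 ± 0.36, adjusted p = 0.00645) had the same shape, with male means of -3.10, -2.43 and -1.56. Without male replicate 3, CG17376 (2.44), Cdlc2 (1.79) and CG8420 (1.71) were not called, and CG31988, CG31029 and salto could not be tested.

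A further set had ratios nearer to the reference. CG1774 (DAC036A22) had 1.09, 1.36 and 2.87 in males and 0.12, -0.19 and -0.22 in females, 3.65-fold higher in males (1.87 ± 0.32, adjusted p = 0.00213). The sexes were apart on all arrays and male replicate 3 was the highest. Without it the difference was 1.32 and still called (adjusted p = 0.0898, within a range of 0.000105 to 0.881 over 17 alternatives). CG17829 (Hinfp) had -0.97, -0.53 and 0.91 in males and -1.27, -2.41 and -2.67 in females (1.92 ± 0.60, adjusted p = 0.0948). Without male replicate 3 its difference was 1.37 and not called. Charlatan, a zinc finger factor of sensory organ development, had -0.27 and 0.35 in males and -0.46 and -3.50 in females (2.02 ± 0.45, adjusted p = 0.0169). It was called without male replicate 3, where it has no value, and its size came from the -3.50 of female replicate 2. Peste, a scavenger receptor of the CD36 family, had 3.10 and 3.16 in males and 1.28 and 2.11 in females (1.43 ± 0.32, adjusted p = 0.0139). With no value on male replicate 2 or female replicate 1, it could not be tested without male replicate 3. Under quantile normalization its difference was 0.46 and not called. CG5021 (DAC016O09) had 0.52, 0.71 and 1.01 in males and 0.03, -0.62 and -0.03 in females (0.95 ± 0.18, adjusted p = 0.00389), and was named after its values were seen because it too was called without male replicate 3 (0.82). CG9914 (Had1), with 1.52, 1.13 and 2.11 against 0.58, 0.74 and 0.88, and Microsomal glutathione S-transferase-like (Mgstl), a detoxification enzyme, with 2.03, 2.00 and 2.14 against 1.80, 1.49 and 1.2, had separate groups and were called at 0.85 ± 0.24 (adjusted p = 0.0626) and 0.56 ± 0.19 (adjusted p = 0.129). Without male replicate 3 their differences were 0.59 and 0.52, and neither was called. CG32495 (Gss2), with 0.57, 0.10 and 1.45 in males and -0.37, -0.13 and 0.18 in females, was called in overlapping groups (0.82 ± 0.27, adjusted p = 0.128), and without male replicate 3 its difference was 0.44 and not called. CG31775 was not called (-0.52 ± 0.32, adjusted p = 0.451).

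The largest differences after roX1 belonged to probes without a paired name, most of them with very high ratios in males. DAC013O21 had 6.98 and 13.04 in males and 3.15 and 3.08 in females (6.89 ± 1.48, adjusted p = 0.0723), and DAC007D05 had 8.42 and 5.93 in males and 2.72 and 1.45 in females (5.09 ± 0.57, adjusted p = 0.000907). Neither had a value on male replicate 2, so neither could be tested without male replicate 3, where the single male value was 3.86 and 6.34 above the female mean. Under quantile normalization DAC013O21 was at 1.95 and not called (adjusted p = 0.428), and DAC007D05 was at 1.5 and still called. In wild type of 96 h the sex differences of these 2 probes were -1.54 and -0.12, and neither was called. Their contrasts between the genotypes, wild type minus tud progeny, were -8.44 and -5.21, both called. How weak the reference was at such high ratios was not tested. DAC016O05 had 1.59, 2.55 and 4.73 in males and -1.22, -2.04 and -1.77 in females (4.63 ± 0.81, adjusted p = 0.0111), and DAC023K18 had 2.92, 1.42 and 4.84 in males and 0.08 and -1.52 in females (3.78 ± 0.62, adjusted p = 0.0025). The sexes were separate at these 4 probes, and the last 2, named here after their values were seen, were among the 8 calls without male replicate 3 (3.75 and 2.89). In wild type DAC016O05 was at 2.26 and called, and DAC023K18 was at 0.99 and not called. In the other direction DAC035P20 had 0.10, 0.89 and -5.42 in males and 1.36, 1.42 and 1.14 in females (-2.79 ± 0.82, adjusted p = 0.0759), and DAC024I16 had 1.59, 1.81 and -3.58 against 2.38, 2.22 and 2.01 (-2.26 ± 0.74, adjusted p = 0.119). Both are differences made by male replicate 3, and without it they were -0.81 and -0.50.

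Testis germline markers, which should be absent from animals without germ cells, were low in both sexes, and none of the 21 tested was called. Their median difference was 0.58. Their median ratio on the single arrays was -4.08, -2.46 and -3.41 in males and -4.06, -4.32 and -3.74 in females, against 0.61 for the means of wild type males, where all 24 markers were above -1. Only probes named in the study's gene lists could be markers, and its male germline list was chosen in part on these arrays. The contrast with wild type males may therefore not be independent evidence. Male replicate 2 had a value for all 24 markers and none of them was below -3.51. Beta-Tubulin at 85D, the tubulin of the sperm tail, had -8.18 and -3.31 in males and -6.48, -7.79 and -7.22 in females (1.42 ± 1.05, adjusted p = 0.544), and its wild type male mean was 0.43. The set of genes that the study assigned to the male germline held 30 of the 163 male-higher calls and 3 of the 39 female-higher ones, 7.66% of its 431 tested probes, beside 7.65% of all tested probes with a paired name. That set was chosen in part on these tud male arrays and is not independent evidence of direction. Its median difference was 0.28, and without male replicate 3 it was 0.23 with 1 call. For 21 of the 30 the highest male value was on male replicate 3 and for 9 on male replicate 2. The part of germline RNA or of these arrays in the calls was not tested.

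**Figure D3:**
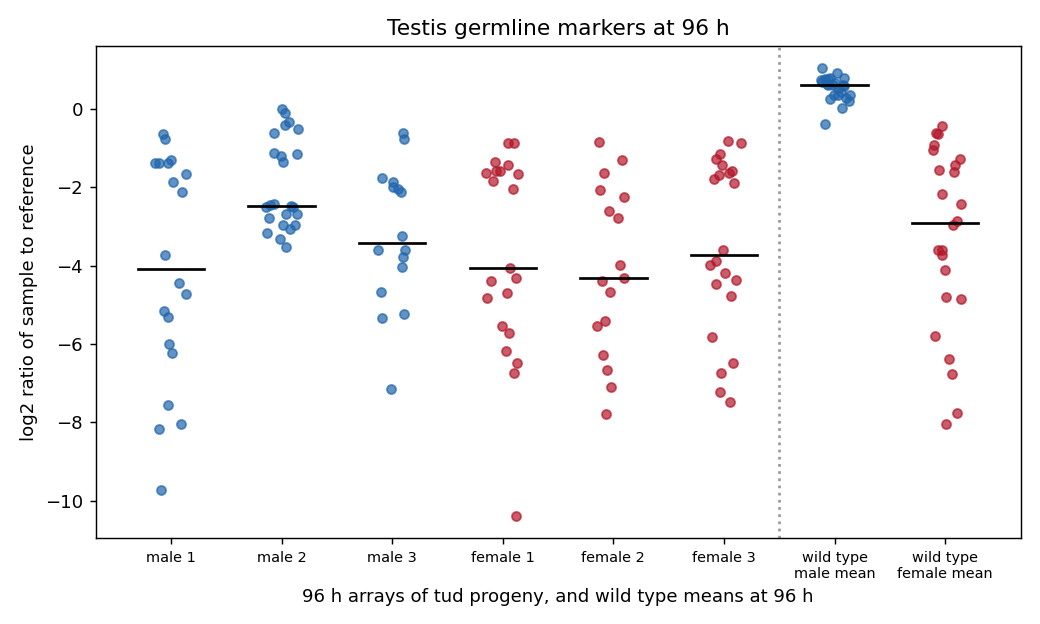
The log2 ratio of each testis germline marker on each 96 h array of tud progeny, and the mean of the 3 wild type arrays of each sex, with a bar at the median. The medians of tud arrays lie between -4.32 and -2.46, those of wild type at 0.61 in males and -2.90 in females, and male replicate 2 lacks the lowest values.

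The set assigned to the female germline held 9 male-higher and 2 female-higher calls of 276 tested, or 3.99%, which is below the shares of all probes and of named probes. It was chosen in part on these tud female arrays, so it too is not independent evidence of direction. Ovarian and eggshell genes gave 1 call each, both higher in males. Bicaudal C, an RNA-binding protein of oogenesis, had -2.55, 0.05 and 0.63 in males and -2.57, -1.94 and -1.73 in females (1.46 ± 0.42, adjusted p = 0.0759). It was the 1 call of 7 ovary germline markers tested. Its probe is also in the set that the study assigned to the male germline. In wild type it was higher in males by 1.91 (limma, adjusted p = 0.000768). Windbeutel, a chaperone needed in follicle cells for the axis of the egg, had 0.43, -0.14 and 1.11 in males and -0.80, -0.60 and -0.68 in females (1.16 ± 0.39, adjusted p = 0.131), the 1 call of 3. Male replicate 3 was the highest array for both. Without it the differences were 0.83 and 0.84 and not called, and Bicaudal C was at 2.42 without male replicate 1.

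Most other lists held few calls or none. None was called of 37 genes of cuticle and chitin (median difference -0.04, from -1.94 to 1.59), 10 of cuticle tanning, 8 of glycolysis and 8 digestive peptidases. Within the cuticle list, Cuticular protein 66D had -2.59, -1.94 and -6.98 in males and -1.71, -2.29 and -2.66 in females, so that its low value was that of male replicate 3 and its difference moved from -1.62 to -0.04 without it. Of 36 proteasome genes 1 was called (2.78%). It was Proteasome 35kD subunit, with -0.15, -0.11 and 0.64 in males and -0.21, -1.66 and -0.03 in females (0.76, adjusted p = 0.112), and its difference rested on female replicate 2, without which it was 0.25 and not called. Of 12 cytoplasmic ribosomal proteins 1 was called, Ribosomal protein S15Ab, with 0.59, 0.68 and 1.39 in males and 0.46, 0.19 and -0.04 in females (0.68, adjusted p = 0.042; 0.43 without male replicate 3, not called). Ecdysone-inducible gene E2 was the 1 call of 16 ecdysone response genes (-2.24, adjusted p = 0.118), with values of -9.99 to -4.23 that overlap between the sexes, and it ranged from -3.58 without male replicate 2 to -1.17 without male replicate 1, the latter not called. Of 14 heat shock proteins and chaperones 1 was called, Heat shock gene 67Ba, with -1.40, -1.41 and -0.06 in males and -3.67, -2.31 and -1.72 in females (1.60, adjusted p = 0.137; 1.05 without female replicate 1, not called). The desaturase desat1, which takes part in the synthesis of cuticular hydrocarbons, had 0.87, 0.73 and 1.11 in males and 0.31, 0.35 and 0.10 in females (0.65, adjusted p = 0.112), and Odorant-binding protein 99b, the other gene of that list, was not called. Of 11 detoxification genes 2 were called higher in males, Mgstl and CG6662 (GstO1, 1.03, adjusted p = 0.0713), and with every array centred on its median 1 was. The gene sets that the study derived from transformer and doublesex mutants at 48 h held 2 calls of 59 (3.39%) and 4 calls of 132 tested (3.03%), below the 4.61% of all probes. All were higher in males, as were 163 of the 202 calls, with CG12009 and windbeutel in both sets and CG17829 and CG8420 in the second alone. Both sets mix genes of female and of male bias. The study lists CG8420 as male-biased but CG17829 as female-biased at 48 h, opposite to its call here. The median level of the doublesex set was -1.19 on male replicate 3 and -0.45 to -0.22 on the other 5 arrays. Without male replicate 3 none of these lists or sets held a call.

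Few of the probes called at 96 h also passed the threshold earlier. In tud progeny 2 probes differed at 0 h (0.0322%, or 0.0161% in each direction). At 24 h 85 were called (1.62%), 53 higher in males (1.01%) and 32 higher in females (0.609%). The 48 h animals had 33 calls (0.66%), 4 towards males (0.08%) and 29 towards females (0.58%), and those of 72 h had 48 (0.899%), 11 towards males (0.206%) and 37 towards females (0.693%). Of the 202 calls, 144 were tested at all 5 time points, and 133 of those were called at 96 h alone. RoX1 was called at every time point, with differences of 4.59, 7.23, 7.86, 7.21 and 8.35. CG15369 was called from 24 h onward, and Lsp1alpha at 48 h (-1.24) and 96 h. A difference that missed the threshold earlier was not always smaller. Mgstl had 0.65, 0.55, 0.35 and 0.54 at the 4 earlier times and 0.56 at 96 h, and CG15347 had -0.89, -0.86, -0.74 and -0.82 before its -0.76. Lsp1alpha had -1.23, -0.71, -1.24 and -1.08 before its -1.60. White at DAC030L11 was called at 24 h (-1.21), 72 h (-0.91) and 96 h, but not at 0 h (-0.08) or 48 h (-0.38).

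The change of the sex difference from 72 to 96 h was tested directly, and 87 of 3751 probes were called (2.32%), 82 of them towards males (2.19%). Of the 159 calls of 96 h that could be tested, 47 were among these, 46 of them towards males, and the change of the others did not pass the test. These counts share the 96 h arrays and are not independent of each other. CG17376 (change of 3.62 ± 1.10, adjusted p = 0.122), Lysozyme B (3.28 ± 0.66, adjusted p = 0.0133), CG8813 (2.72 ± 0.67, adjusted p = 0.0589), salto (2.71 ± 0.49, adjusted p = 0.00724) and CG8420 (2.52 ± 0.81, adjusted p = 0.148) had the largest changes among named calls. Lysozyme B turned from -1.53 at 72 h, which was not called, to 1.74. No change of a named call towards females passed the test. Without male replicate 3 of 96 h the count was 1, and it was 9 without male replicate 2 of 72 h.

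**Figure D4:**
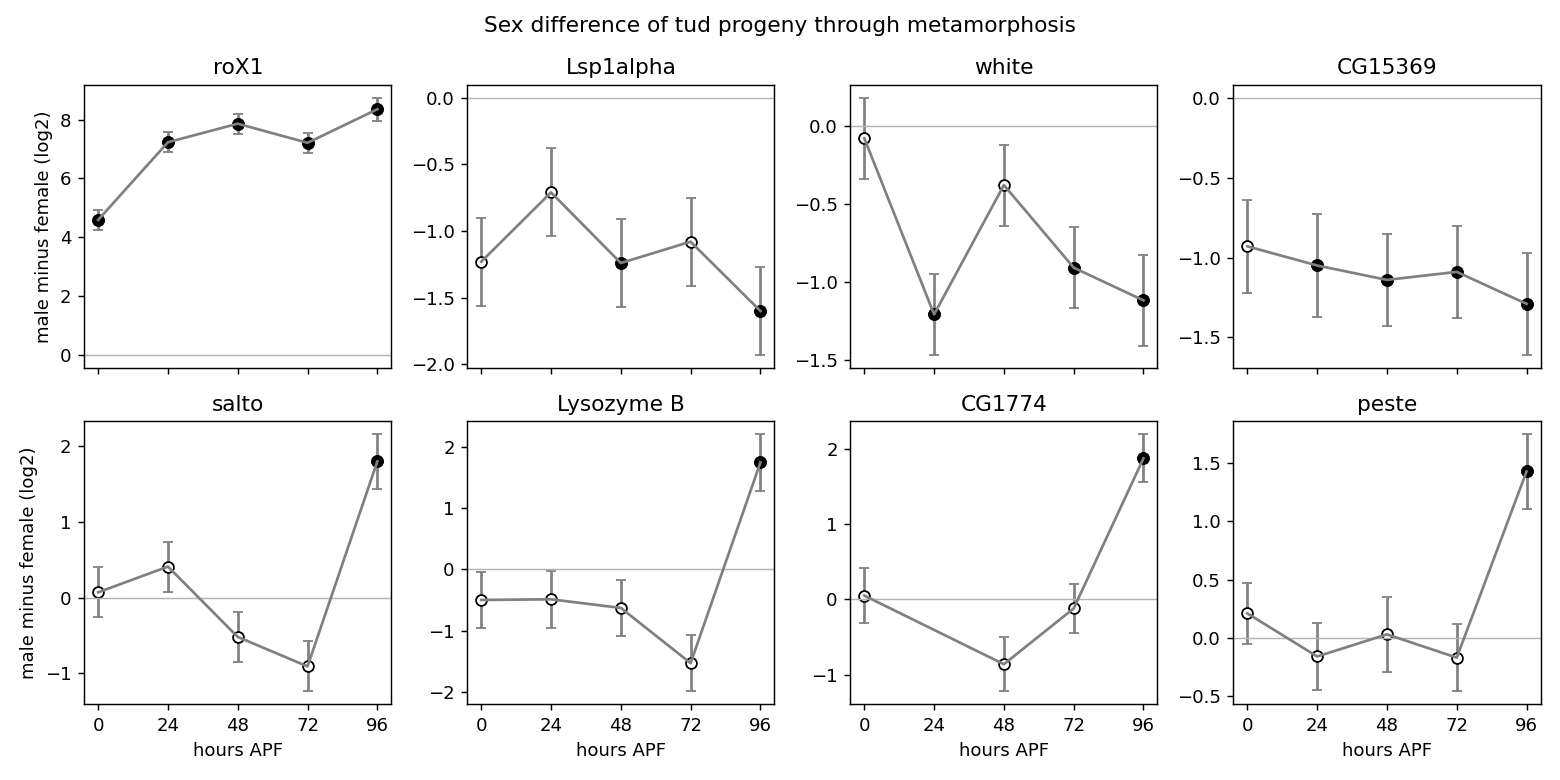
The log2 sex difference of tud progeny (male minus female) for 8 probes at 0, 24, 48, 72 and 96 h APF, with bars of 1 standard error of the fit, filled where adjusted p was under 0.15; the vertical scales differ. RoX1 was above 4.5 throughout, CG15369 stayed near -1, and salto, Lysozyme B, CG1774 and peste were called at 96 h alone; CG1774 was not tested at 24 h.

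Wild type animals of 96 h, which have a germline, differed between the sexes at 2356 of 5627 probes (41.9%). Of the 180 tud calls tested there 78 were called (43.3% of them and 3.31% of the wild type calls), a share near that of all probes. The direction was the same for 44. Of the 142 male-higher tud calls, 37 were male-higher and 23 female-higher in wild type, and of the 38 female-higher ones 7 were female-higher and 11 male-higher. Drosomycin (-1.64) and drosomycin-4 (-1.68) were female-higher in wild type as well. CG1774 was male-higher in wild type, by 1.55. Others went the opposite way in wild type. CG15369 was higher in males there (0.90, adjusted p = 0.0157) and CG9914 was higher in females (-0.52, adjusted p = 0.0923). Lsp1alpha was at -0.01 in wild type, and its contrast between the genotypes, 1.59 ± 0.46, was called (adjusted p = 0.0126). Its wild type means were -4.63 in both sexes, against -2.76 in tud males and -1.16 in tud females. At such low wild type ratios the size of this contrast is uncertain.

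The difference between the genotypes in the sex effect, wild type minus tud progeny, was called for 1418 of 4033 probes (35.2%), 525 positive and 893 negative. It was called for 124 of the 180 tud calls, 90 of them negative, and since the tud arrays enter with the opposite sign these counts are not independent of the calls. Among named calls the largest positive contrasts were those of CG31988 (4.72 ± 1.12, adjusted p = 0.00268), CG17376 (4.02 ± 1.10, adjusted p = 0.00826), CG32820 (3.45 ± 0.67, adjusted p = 0.000373), granny smith (2.83 ± 0.47, adjusted p = 6.88e-05) and Arginine kinase (2.78 ± 0.57, adjusted p = 0.000681). The first 3 of these had wild type male means of 0.53, 0.59 and 0.06, and wild type female means of -7.16, -5.86 and -4.96. The largest negative ones were those of charlatan (-2.62 ± 0.62, adjusted p = 0.00317), Heat shock gene 67Ba (-2.33 ± 0.78, adjusted p = 0.0313), roX1 (-2.28 ± 0.52, adjusted p = 0.00181), peste (-1.87 ± 0.41, adjusted p = 0.00157) and CG8223 (Nasp, -1.72 ± 0.41, adjusted p = 0.0027). For roX1 the wild type difference was 6.06, with a female mean of -5.69 against -7.83 in tud females. Both are very low ratios whose size is uncertain, so no genotype difference in roX1 is read from this contrast. Without tud male replicate 3 the count was 884.

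Values on all 3 arrays of a sex and on none of the other were found for 28 probes in males and 96 in females. Male replicates 2 and 3 held the fewest values of the 6 arrays, 4227 and 4255, and the part of this in the counts was not tested. In males 3 had a name, CG30366 (mean -0.38), CG10254 (-0.73) and CG31226, whose values of -6.26, -2.73 and -5.36 were far below its wild type male mean of 0.60. In females 10 had a name, with the highest means in bubblegum (0.94), a fatty acid-CoA ligase, pink (0.02), which acts in pigment granule formation, CG14888 (-0.01), the histone methyltransferase gene grappa (-0.17), CG1550 (-0.17) and CG34133 (-0.31). Except for CG14888, with no wild type male value, these named probes had values in both sexes of wild type.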

How the data were processed

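RNA of pooled whole pupae was hybridised against a common reference. The values deposited by the authors are on the log2 scale (sample over reference), after global loess within arrays in limma (its version is not given in the sources used here). The authors discarded elements with faults and elements weak in both channels, so such elements are missing values. Per the labels the sample was in Cy5, while the methods name Cy3, so direction was taken from the labels. With it roX1, known from males, was high in males. A background correction and a normalization between arrays are not given in the sources used here. The 32 control elements of 15776 were left out. Scanner intensities were not used here.

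Group means of all 60 arrays in 20 groups were fitted with limma 3.58.1 (statmod 1.5.0, R 4.3.3), with empirical Bayes moderation of the variance (2.82 prior degrees of freedom, prior variance 0.106). A probe was tested with at least 2 values in each group, and was called at a Benjamini-Hochberg adjusted p under 0.15 over all probes tested. The fit was tested on simulated data. The number of arrays limits the precision. Figures were drawn with Python 3.11.15, numpy 2.4.6, pandas 2.3.3 and matplotlib 3.10.9.

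Names came from gene lists in the study's supplement, some of which were chosen on these samples. They pair 2357 probes with a gene, 2325 of them with a symbol in RefSeq's Release 6 table. Of the probes tested 37.9% had a name, and of the calls 62.9%. Other probes are given by identifier. Positions and sequences are not given here, and the planned motif search was not run. The probes, gene lists and tests were chosen with earlier results of these data known. Named genes were a fixed list of genes that the study discusses, the 12 named and 2 unnamed calls with the largest difference in each direction among those with separate groups, called members of each list or else the widest differences, the named probes of 1 sex with the highest means, and the 5 named calls with the largest change or genotype contrast in each direction. Alternatives tried were fits restricted to the compared arrays or to the 30 tud arrays, median centring, quantile normalization, 3 values or 1 value per group, Storey's q, adjusted p under 0.05, a 2-fold minimum, array quality weights, a replicate block, an approach in tiers modelled on the study's, and leaving out each array. The gene list counts without male replicate 3 and after centring were added after seeing the data.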

Additional observations from a re-analysis of the deposited data

Results flagged for a closer look

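The sex difference itself differed between the genotypes or between time points for several named genes, by limma tests of those contrasts. From 72 to 96 h the difference of tud progeny moved towards males for CG17376 (by 3.62), Lysozyme B (3.28), CG8813 (2.72), Syntaxin Interacting Protein 2 (2.71), CG8420 (2.52), charlatan (2.45) and peste (1.60). Under quantile normalization the changes of CG8420 (2.18) and peste (0.65) were not called. The sex difference at 96 h was more male in wild type than in tud progeny for CG31988 (4.72), CG17376 (4.02), CG32820 (3.45), granny smith (2.83), Arginine kinase (2.78), CG8813 (2.35) and Syntaxin Interacting Protein 2 (1.80). It was less so for charlatan (-2.62), Heat shock gene 67Ba (-2.33), RNA on the X 1 (-2.28), peste (-1.87) and CG8223 (-1.72). For RNA on the X 1, CG31988, CG17376 and CG32820 the contrast involves very low female ratios, whose size is uncertain.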

How the results depend on the processing

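The 202 calls at 96 h (163 higher in males, 39 in females) depended on the fit. Median centring gave 203 (152 and 51) and 188 of the same probes. The replicate block gave 167 (121 and 46), 120 of them the same. Calls numbered 1 (1 and 0, with 165 at an unadjusted p under 0.05) with only the 6 compared arrays, 7 (7 and 0) with array weights, 44 (34 and 10) with the 30 tud arrays, 46 (36 and 10) at adjusted p under 0.05, 63 (46 and 17) in tiers modelled on the study, 67 (58 and 9) with quantile normalization, 77 (55 and 22) with 3 values per group, 87 (65 and 22) at 2-fold or more, 356 (263 and 93) by Storey's q and 482 (334 and 148) with 1 value per group. The tiers used Benjamini-Hochberg adjustment, where the study used q values. They took only probes with 2 or more values in every tud group, and 105 reached the second tier. Leaving out single arrays gave 8 to 618 calls, 6 to 454 higher in males and 2 to 242 in females. The call of roX1 was made with the 6 arrays alone. The change from 72 to 96 h (87 calls) went to 0 by limma with only the compared arrays (234 at an unadjusted p under 0.05), 5 with weights, 7 at adjusted p under 0.05, 12 with 3 values, 54 with the replicate block and 287 with 1 value, and to 1 to 279 without single arrays, with 33 and 43 without female replicates 1 and 2 of 72 h, 9 and 46 without male replicates 2 and 3 of 72 h, 23 and 13 without female replicates 1 and 2 of 96 h, and 279 and 158 without male replicates 1 and 2 of 96 h. The genotype dependence (1418 calls) went to 793 with only the compared arrays, 745 with quantile normalization, 812 with 3 values, 840 at adjusted p under 0.05 and 765 at 2-fold, and to 884 to 1401 without single arrays. Probes of 1 sex rose from 28 to 81 in males and from 96 to 355 in females when 2 arrays sufficed. The cause of these shifts was not tested, except that a demand for more values leaves fewer tests, and a stricter threshold fewer calls, by construction.

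Among values of named genes under the alternatives, 1131 kept their direction and side of the threshold, 364 were no longer past it, 10 newly passed it and 3 changed sign. These were white at DAC005J02 without male replicate 1 (0.09, with -0.65 to 0.09 over the arrays left out), the change of roX1 under quantile normalization (-0.35) and the genotype contrast of Lysozyme B without female replicate 2 (0.30, with -0.57 to 0.30 over the arrays left out), none of them called. Same-numbered arrays of the sexes deviated from their group means with correlations of 0.336, 0.018 and 0.462. Male replicate 1 correlated less with female replicates 2 and 3 (0.019 and -0.42), as did male replicate 3 with female replicates 1 and 2 (-0.364 and -0.027). Male replicate 2 correlated best with female replicate 1 (0.157). Whether the numbers pair the arrays was not tested. Rank correlation moved the lowest agreement of the 6 arrays from 0.674 to 0.624.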

Other observations

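A few single calls were named after their values were seen, and no group is drawn from them. Ilp6, an insulin-like peptide, differed by -0.65 in separate groups, and CG14375 (CCHa2), a nutrient-dependent peptide, by -0.65 in overlapping groups. In the other direction dacapo, an inhibitor of cyclin-dependent kinases, had -1.10, 0.13 and 0.78 in males and -1.22, -1.77 and -1.47 in females (1.42). None of the 3 was called without male replicate 3.

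Heat-shock-protein-70Ba, an inducible chaperone, was high on replicate 2 of both sexes. Its ratios were -1.73, 2.38 and -2.38 in males and -0.60, 2.23 and -1.79 in females, a sex difference of -0.53 that was not called.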
